A study of Mus musculus with 6 samples.

Results

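This account describes 31 mouse genes of fatty acid and triglyceride synthesis in the livers of 3 mice that lack sphingosine-1-phosphate (S1P) lyase and of 3 wild-type (WT) mice. The genes were chosen by symbol, and every probe set that a platform annotation assigned to 1 of these symbols alone was taken. The 31 genes have 69 probe sets among the 45101 on the array. Of these, 60 probe sets passed the filter on dim values, and 30 of the 31 genes were tested among 13370 genes, each by its brightest probe set. The remaining gene, Elovl3, lay below the filter. Total liver RNA, extracted with TRIzol, was hybridised to 1 Affymetrix mouse genome array per animal. The knockout (KO) animals lacked S1P lyase, encoded by Sgpl1, the enzyme that irreversibly cleaves the signalling lipid S1P. All 6 animals had the same mixed C57BL6 and 129sv background, and none was treated. No age, sex, litter or feeding state is stated in the labels. Replicate numbers only name the animals and pair none of them. The series addresses lipid homeostasis in the liver without S1P lyase.

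The liver makes fatty acids from carbohydrate. Citrate exported from mitochondria is cleaved to acetyl-CoA, carboxylated to malonyl-CoA, and built by fatty acid synthase into palmitate with NADPH as the reductant. Elongases lengthen the chain, desaturases add double bonds, acyl-CoA synthetases activate it, and a series of acyltransferases and a phosphatase place acyl chains on glycerol to give triglyceride. The transcription factors SREBP-1c, encoded by Srebf1 and responsive to insulin and sterol signals, and ChREBP, encoded by Mlxipl and responsive to glucose, are the main transcriptional activators of these genes in the liver. Most of these transcripts rise on refeeding and fall on fasting.

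The deposited values are log2 signals, and having 3 arrays in each group limits how precisely any difference is known. Sgpl1 was low in the knockout livers on both of its probe sets, at 2.46, 2.99 and 2.87 against 6.65, 6.90 and 6.71 in WT on the first, and at 2.99, 3.29 and 3.31 against 6.04, 6.62 and 6.08 on the other. Correlations between arrays over the tested genes were 0.983 to 0.990 within the knockout group, 0.979 to 0.983 within WT and 0.936 to 0.950 between them. Array medians were 4.08 in knockout and 4.11 in WT (means of 3). Some array controls differed by genotype. The 24 probe sets for the bacterial poly-A transcripts, which are spiked into RNA before labelling, were on average 0.75 higher in knockout arrays, and all 24 were higher in each knockout array than in any WT array. The 3′ minus 5′ signal of Pcx was 1.01 higher in knockout arrays, with knockout and WT separated for this and the other 3 transcripts with such probe sets (exact permutation p = 0.1 each, the smallest that 3 against 3 allows). The part of these control differences in the results was not tested, and a called gene whose direction turns when arrays are centred on the poly-A controls is given with its value. With that centring the median difference of all genes was -0.80 in place of -0.05.

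Upstream sequences are shown for 4 genes on which the results turn: Thrsp, which had the steepest fall of the 31 genes, Mlxipl, a called transcription factor, and Fasn and Pnpla3, for which 1 WT liver stood far above the other 2. RefSeq promoter windows (GRCm38.p6) matched 25 of the 31 genes, with 34 windows in all, and the 250 bases before each annotated start were read 5′ to 3′ on the gene's strand. Capitals mark the motifs CCAAT (on the opposite strand ATTGG), the palindromic E-box CACGTG, and the sterol regulatory element TCACNCCAC, searched on both strands. The windows are chr7:97417551-97417800 on the minus strand for Thrsp, chr5:135089640-135089889 on the plus strand for the outer of 2 windows of Mlxipl, chr11:120824548-120824797 on the minus strand for Fasn and chr15:84167566-84167815 on the plus strand for Pnpla3.
Thrsp: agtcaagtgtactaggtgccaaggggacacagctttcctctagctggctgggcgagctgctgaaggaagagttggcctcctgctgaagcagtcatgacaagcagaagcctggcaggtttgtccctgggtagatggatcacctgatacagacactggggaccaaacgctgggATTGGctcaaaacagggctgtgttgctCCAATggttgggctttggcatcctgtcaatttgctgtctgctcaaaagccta
Mlxipl: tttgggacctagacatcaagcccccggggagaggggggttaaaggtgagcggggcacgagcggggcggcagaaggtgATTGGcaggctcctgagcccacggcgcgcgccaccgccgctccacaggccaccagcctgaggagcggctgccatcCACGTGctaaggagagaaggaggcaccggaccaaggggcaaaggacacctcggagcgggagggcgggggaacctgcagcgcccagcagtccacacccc
Fasn: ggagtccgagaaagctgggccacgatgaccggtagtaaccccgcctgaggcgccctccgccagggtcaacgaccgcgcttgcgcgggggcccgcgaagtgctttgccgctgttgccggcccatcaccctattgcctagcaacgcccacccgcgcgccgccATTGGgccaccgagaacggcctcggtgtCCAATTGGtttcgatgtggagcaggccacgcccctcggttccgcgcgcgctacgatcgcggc
Pnpla3: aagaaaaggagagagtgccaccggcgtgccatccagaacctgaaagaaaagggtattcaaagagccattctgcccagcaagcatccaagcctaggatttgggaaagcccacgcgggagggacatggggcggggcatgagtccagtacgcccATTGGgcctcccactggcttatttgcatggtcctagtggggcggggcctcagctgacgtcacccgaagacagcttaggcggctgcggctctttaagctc

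The Thrsp window holds 1 CCAAT on each strand, 52 to 48 and 79 to 75 bases before the start. Fasn holds 3, of which those at 62 to 58 and 59 to 55 overlap on opposite strands, and Pnpla3 holds 1. The Mlxipl window holds CACGTG 98 to 93 bases before the start and 1 CCAAT. The motif CCAAT was in 47.1% of the 34 windows of these genes and in 33.8% of all 32851 mouse windows of the same length. CACGTG was in 4 of the 34 windows (11.8%), those of Elovl5, Lpin2, Mlxipl and Slc25a1, against 6.02% of all windows. TCACNCCAC was in 1 of the 34 windows, the inner one of Mlxipl, 136 to 128 bases before that start, against 1.05% of all windows. A match describes the letters only, and these windows cover a small stretch of the sequence that can regulate a gene.

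Among the 30 tested genes, 3 rose in the knockout livers (Scd2, Lpin2 and Dgat1) and 7 fell (Thrsp, Mlxipl, Acss2, Me1, Acsl5, Agpat2 and Dgat2), by limma with a threshold of 0.05 on the Benjamini-Hochberg adjusted p across the 13370 genes. The 3 that rose are 10% of the genes tested, against 10.5% of all genes, a share near the background. The 7 that fell are 23.3%, against 8.09% of all genes. Every knockout value lay below every WT value in 15 of the 30 genes (50%), against 21.8% of all genes, and above in 5 (16.7%), against 19% of all genes. The median difference, knockout minus WT, was -0.34 log2 over these genes and -0.05 over all genes, and without WT replicate 2 it was -0.14 and -0.04. In a bulk sample, fewer cells of a type and less RNA per cell cannot be told apart. Leaving out knockout replicate 1 or knockout replicate 2 left 4 genes that fell, and leaving out WT replicate 1 gave 9. The plot of each gene by liver also shows that WT replicate 2 lay apart from the other WT livers in many of these genes.

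**Figure D1:**
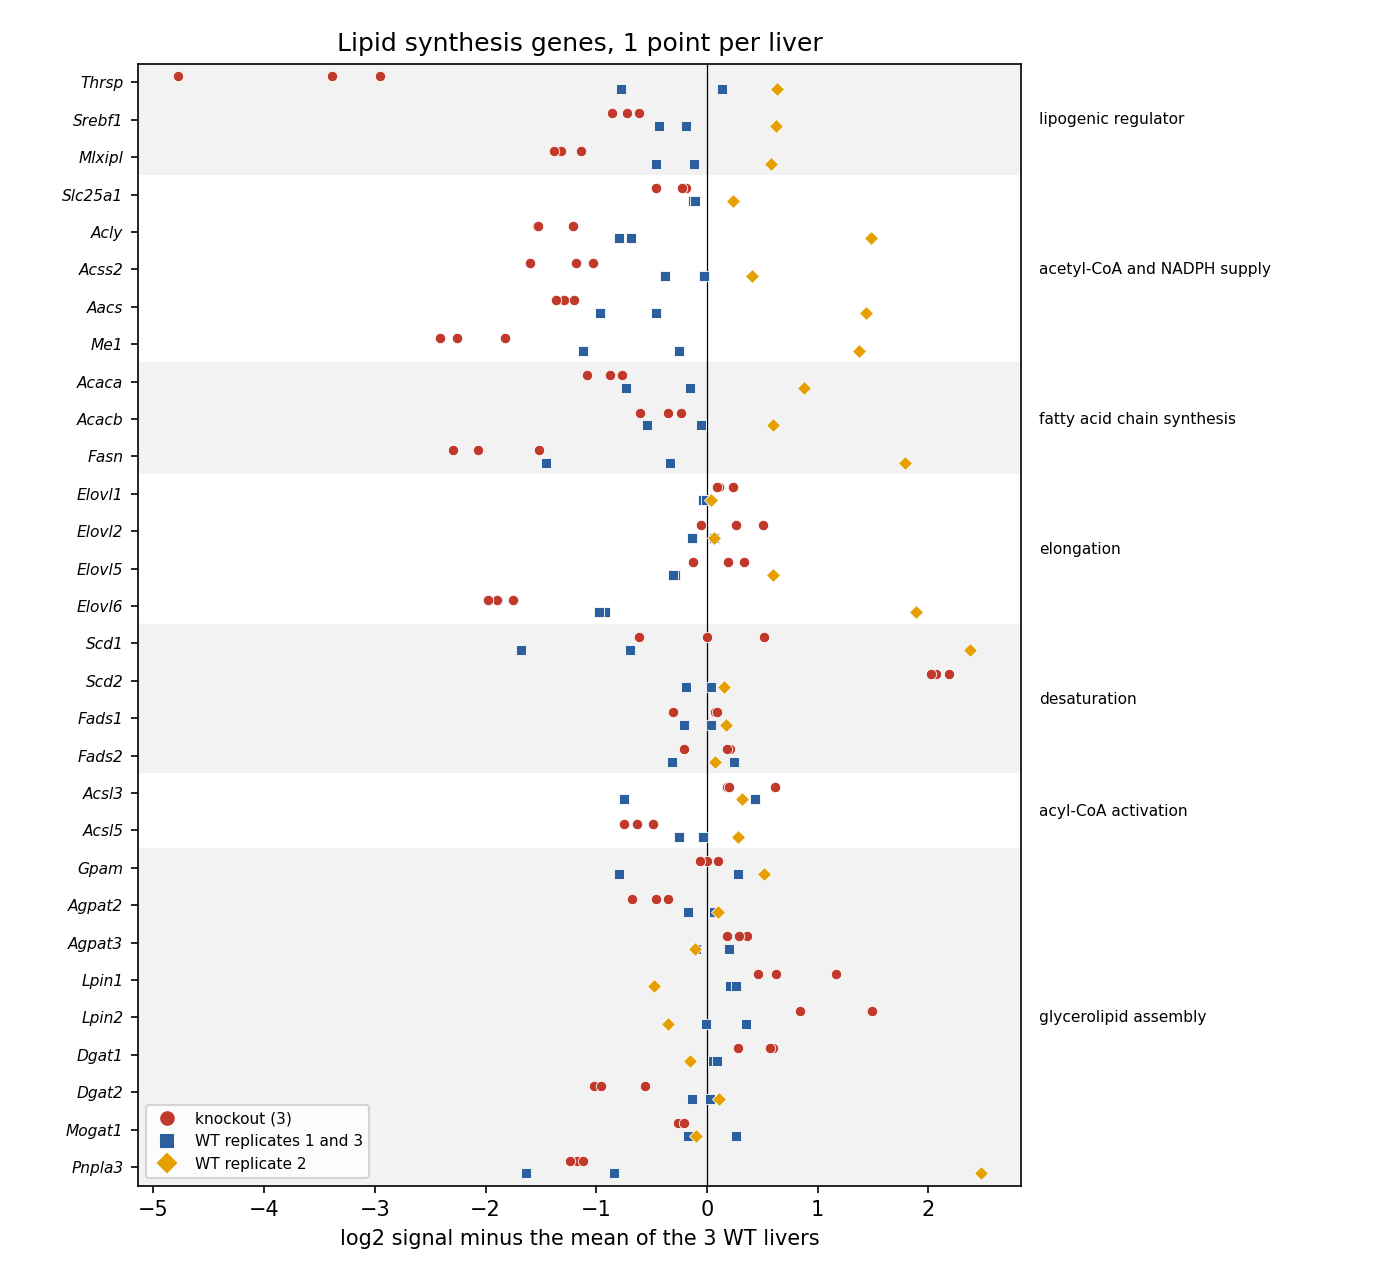
Log2 signal of each of the 30 tested genes in each liver, minus the mean of the 3 WT livers, grouped by role (red circles, knockout; blue squares, WT replicates 1 and 3; orange diamonds, WT replicate 2). Thrsp shows the largest distance between genotypes, and WT replicate 2 lies to the right of the other WT livers in 23 of the 30 genes.

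The 3 regulators were lower in every knockout liver than in any WT liver, as were 21.8% of all genes. Thrsp, which encodes the Spot 14 protein that promotes lipogenesis, read 7.20, 9.02 and 8.58 in the knockout livers and 11.20, 12.61 and 12.11 in WT. The groups did not overlap, and the lowest value, of knockout replicate 1, lay well below the other two knockout livers. Thrsp fell by 3.71 log2 (SE 0.49, limma adjusted p = 0.00221), or 13.0-fold, and its other tested probe sets fell by 4.16 and fell by 0.77. Mlxipl, encoding ChREBP, read 7.73, 7.91 and 7.67 in knockout and 8.93, 9.62 and 8.59 in WT, and fell by 1.28 (SE 0.24, limma adjusted p = 0.00979), or 2.43-fold. The 3 knockout livers were close to each other and all below the lowest WT liver. Srebf1 read 9.72, 9.97 and 9.86 in knockout and 10.15, 11.20 and 10.39 in WT. The groups did not overlap, but its difference of -0.73 (SE 0.25) was not called (limma adjusted p = 0.0764). Without WT replicate 1 it was -0.95 and called (limma adjusted p = 0.0446), and without WT replicate 2 it was -0.42 and not called (0.0895). The values do not tell apart the SREBP-1a and SREBP-1c transcripts of this gene.

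On their brightest probe sets, the 5 genes that supply acetyl units and NADPH were all lower in each knockout liver than in any WT liver. This was so in 21.8% of all genes. Of the 5, 2 fell (40%), against 8.09% of all genes. Acss2, the cytosolic acetyl-CoA synthetase that activates acetate, read 6.86, 7.01 and 6.44 in knockout and 7.66, 8.45 and 8.01 in WT and fell by 1.27 (SE 0.22, limma adjusted p = 0.00739), or 2.41-fold. The means of its 3 probe sets were all lower in knockout, and 2 of them fell, while the groups overlapped on the dimmest. Me1, the cytosolic malic enzyme that yields NADPH, read 5.99, 6.14 and 6.58 in knockout and 7.28, 9.78 and 8.15 in WT and fell by 2.17 (SE 0.54, limma adjusted p = 0.0292), or 4.49-fold. The groups did not overlap, and WT replicate 2 was the highest. The Me1 call was lost without knockout replicate 1 (-2.04, limma adjusted p = 0.0974), without knockout replicate 2 (-2.12, 0.0970) and with the mean of its probe sets (-1.88, 0.05002). Without WT replicate 2, the difference was -1.48 and called (limma adjusted p = 0.0146).

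Acly, the ATP-citrate lyase that makes cytosolic acetyl-CoA, read 8.29, 8.61 and 8.30 in knockout and 9.03, 11.30 and 9.14 in WT. WT replicate 2 stood 2.16 above the next WT liver, and the difference of -1.42 (SE 0.54) was not called (limma adjusted p = 0.102). Without that liver the difference was smaller, -0.69, and was called (limma adjusted p = 0.0251). On another Acly probe set the groups overlapped, with 8.5701 in knockout replicate 2 and 8.5699 in WT replicate 1. Its difference of -1.04 was not called (limma adjusted p = 0.209 over probe sets), and it was -0.29 without WT replicate 2. The remaining tested probe set did not overlap and was not called either (-1.86, limma adjusted p = 0.0502 over probe sets). Aacs, acetoacetyl-CoA synthetase, read 5.71, 5.62 and 5.55 in knockout and 5.94, 8.34 and 6.45 in WT (-1.29, SE 0.53, limma adjusted p = 0.127), again with WT replicate 2 highest. Without that liver its difference was -0.57 and not called (limma adjusted p = 0.0790). Slc25a1, the mitochondrial citrate carrier, was close in both groups, at 8.30, 8.57 and 8.53 against 8.63, 8.995 and 8.65 (-0.29, SE 0.14, limma adjusted p = 0.181), and its difference was -0.17 without WT replicate 2.

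None of the 3 genes of chain synthesis was called, and in all 3 WT replicate 2 was the highest WT liver. Fasn, fatty acid synthase, read 7.41, 7.64 and 8.20 in knockout and 8.25, 11.50 and 9.37 in WT. The groups do not overlap, yet WT replicate 1 lies close to the highest knockout liver and WT replicate 2 far above both other WT livers. The difference was -1.96 (SE 0.70, 95% interval -3.58 to -0.34), not called (limma adjusted p = 0.0886), and the SD was 0.40 among knockout and 1.65 among WT livers (n = 3 each). Without WT replicate 1 it was -2.69 and called (limma adjusted p = 0.0272), and without WT replicate 2 it was -1.06 and not called (0.0896). Acaca, encoding acetyl-CoA carboxylase 1, which commits acetyl-CoA to fatty acid synthesis, read 7.64, 7.96 and 7.86 in knockout and 8.003, 9.61 and 8.58 in WT (-0.91, SE 0.35, limma adjusted p = 0.111). Without WT replicate 1 it was -1.27 and called (limma adjusted p = 0.0347), and without WT replicate 2 it was -0.47. The other Acaca probe set was dim, at 3.53, 3.37 and 3.71 in knockout and 4.51, 6.07 and 4.56 in WT (filter level 3.58). Its knockout mean of 3.54 lay below the filter level, so it was tested only through its WT values. It fell by 1.51 (limma adjusted p = 0.0284 over probe sets). The 2 probe sets of this gene thus disagree in call though not in direction. Acacb, acetyl-CoA carboxylase 2, whose product near the mitochondrion limits fatty acid oxidation, overlapped between groups, with WT replicate 3 (5.04) inside the knockout range of 4.98 to 5.35 (-0.40, SE 0.26, limma adjusted p = 0.319). The Acacb difference was -0.10 without WT replicate 2 and -0.67 without WT replicate 3, neither of them called.

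Of the elongases, 4 were tested and none was called. Elovl6, which lengthens palmitate to stearate, read 6.51, 6.37 and 6.29 in knockout and 7.34, 10.15 and 7.29 in WT. The WT replicate 2 value stood 2.81 above the next WT liver. The difference over all livers was -1.87 (SE 0.68, limma adjusted p = 0.0919), and without WT replicate 2 it was -0.93 and called (limma adjusted p = 0.00586). The means of its 3 probe sets were all lower in knockout, though the groups overlapped on the dimmest. That probe set read 3.21, 3.08 and 3.45 in knockout and 3.48, 5.16 and 3.32 in WT. Only its WT replicate 2 value lay above the filter level of 3.58. Elovl2, Elovl1 and Elovl5, which act mainly on long polyunsaturated or very long chains, had differences of 0.24, 0.15 and 0.13, with knockout ranges of 10.36 to 10.92, 8.14 to 8.28 and 10.70 to 11.16. None of the 3 was called, and all 3 turn to the opposite sign with poly-A centring (-0.51, -0.60 and -0.61). The probe set of Elovl3 gave 3.35, 3.49 and 3.27 in knockout and 3.87, 3.84 and 3.57 in WT, and these values are near the level of dim probe sets (filter level 3.58), so no test was made.

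Among the desaturases, Scd2 rose and Scd1 was not called. Scd2, a stearoyl-CoA desaturase that is most active outside the adult liver, read 6.89, 6.85 and 7.01 in knockout and 4.64, 4.98 and 4.86 in WT. All 3 knockout livers were above every WT liver, with small spread in both groups. Scd2 rose by 2.09 (SE 0.13, limma adjusted p = 7.24e-05), or 4.26-fold, and its other tested probe set rose by 0.66. Scd1, the main stearoyl-CoA desaturase of the liver, read 9.03, 9.64 and 10.16 in knockout and 7.97, 12.02 and 8.95 in WT. The 3 knockout values lie between WT replicate 3 and WT replicate 2, and WT replicate 1 is the lowest of all 6. The difference was -0.03 (SE 0.90, 95% interval -2.11 to 2.04, limma adjusted p = 0.983), a wide interval that holds large differences of either sign. The sign turned, to 1.15 (limma adjusted p = 0.0866), without WT replicate 2. Whether the probe sets of Scd1 and Scd2, close paralogs, cross-hybridise was not tested. Fads1 and Fads2, the desaturases that introduce double bonds nearer the carboxyl end of polyunsaturated chains, had differences of -0.05 (95% interval -0.40 to 0.30) and 0.06 (-0.35 to 0.47) and were not called.

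Among the acyl-CoA synthetases, which couple free fatty acids to coenzyme A, Acsl5 read 9.83, 10.09 and 9.95 in knockout and 10.33, 10.86 and 10.55 in WT. It fell by 0.62 (SE 0.15, limma adjusted p = 0.0251), or 1.54-fold. The call was lost without knockout replicate 1 (-0.56, limma adjusted p = 0.0896), knockout replicate 2 (-0.69, 0.0553), knockout replicate 3 (-0.62, 0.0559) or WT replicate 2 (-0.48, 0.0573), and with arrays centred on hepatocyte markers (-0.47, 0.0747). Acsl3 overlapped, with 6.39, 5.96 and 5.97 in knockout and 5.02, 6.09 and 6.21 in WT (0.33, not called), and WT replicate 1 alone was low.

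Glycerolipid assembly was mixed, with 2 of the 9 genes up and 2 down (22.2% each). Of all genes, 10.5% rose and 8.09% fell. Lpin2, a phosphatidate phosphatase that gives diacylglycerol, read 10.12, 10.12 and 9.47 in knockout and 8.99, 8.28 and 8.62 in WT. It rose by 1.27 (SE 0.23, limma adjusted p = 0.00815), or 2.41-fold, and remained positive with poly-A centring (0.52). Of its 4 tested probe sets 2 rose, the larger by 1.51. Lpin1, a related phosphatidate phosphatase and coactivator, read 9.40, 9.93 and 9.23 in knockout and 8.98, 8.30 and 9.04 in WT. All knockout values were above WT but the difference of 0.75 (SE 0.24) was not called (limma adjusted p = 0.0693), and it was -0.00035 with poly-A centring.

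The 2 acyltransferases that complete triglyceride moved in opposite directions. Dgat2, the form that uses newly made fatty acids in the liver, read 10.18, 10.64 and 10.25 in knockout and 11.07, 11.32 and 11.23 in WT. It fell by 0.85 (SE 0.14, limma adjusted p = 0.00606), or 1.80-fold, and its other probe set fell by 1.07. Dgat1, read at 7.17, 7.15 and 6.86 in knockout and 6.64, 6.42 and 6.67 in WT, rose by 0.48 (SE 0.14, limma adjusted p = 0.0430), or 1.40-fold, while its other probe set, at 0.57, was not called. The call of Dgat1 was lost without knockout replicate 1 (0.42, limma adjusted p = 0.136), knockout replicate 2 (0.44, 0.137), WT replicate 1 (0.51, 0.0835), WT replicate 2 (0.41, 0.127) or WT replicate 3 (0.53, 0.0533), without a filter (0.0511) and with quantile normalization (0.41, 0.0760), and the sign turned with poly-A centring (-0.27).

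Agpat2, a 1-acylglycerol-3-phosphate acyltransferase, read 9.28, 9.50 and 9.60 in knockout and 10.02, 10.06 and 9.79 in WT and fell by 0.50 (SE 0.13, limma adjusted p = 0.0326), or 1.41-fold. The call was lost without knockout replicate 1 (-0.41, 0.105), knockout replicate 2 (-0.52, 0.0892), WT replicate 1 (-0.46, 0.0984) or WT replicate 2 (-0.45, 0.0940), and with hepatocyte centring (-0.34, 0.117), all limma adjusted p. Agpat3, a paralog, had 8.43, 8.25 and 8.36 against 7.96, 7.96 and 8.27 (0.28, not called), and its 4 probe sets ranged from -0.38 to 0.28. Gpam, which adds the first acyl chain to glycerol 3-phosphate, had 10.11, 10.05 and 10.21 in knockout and 9.31, 10.63 and 10.39 in WT (0.01, not called). Its other probe set read 6.46, 6.38 and 7.09 in knockout and 7.04, 8.63 and 8.31 in WT and fell by 1.35 (SE 0.39, limma adjusted p = 0.0453 over probe sets), so the probe sets of Gpam disagree. Mogat1, a monoacylglycerol acyltransferase, was dim, at 4.20 to 4.26 in knockout and 4.30 to 4.73 in WT (-0.24, not called).

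Pnpla3, a lipase-like protein of lipid droplets, read 4.43, 4.37 and 4.49 in knockout and 3.97, 8.08 and 4.77 in WT. The 3 knockout livers read alike at a dim level, close to that of Mogat1, and WT replicate 2 alone is high. The difference of -1.18 (SE 0.90, limma adjusted p = 0.383) was not called, and it was 0.06 without WT replicate 2.

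**Figure D2:**
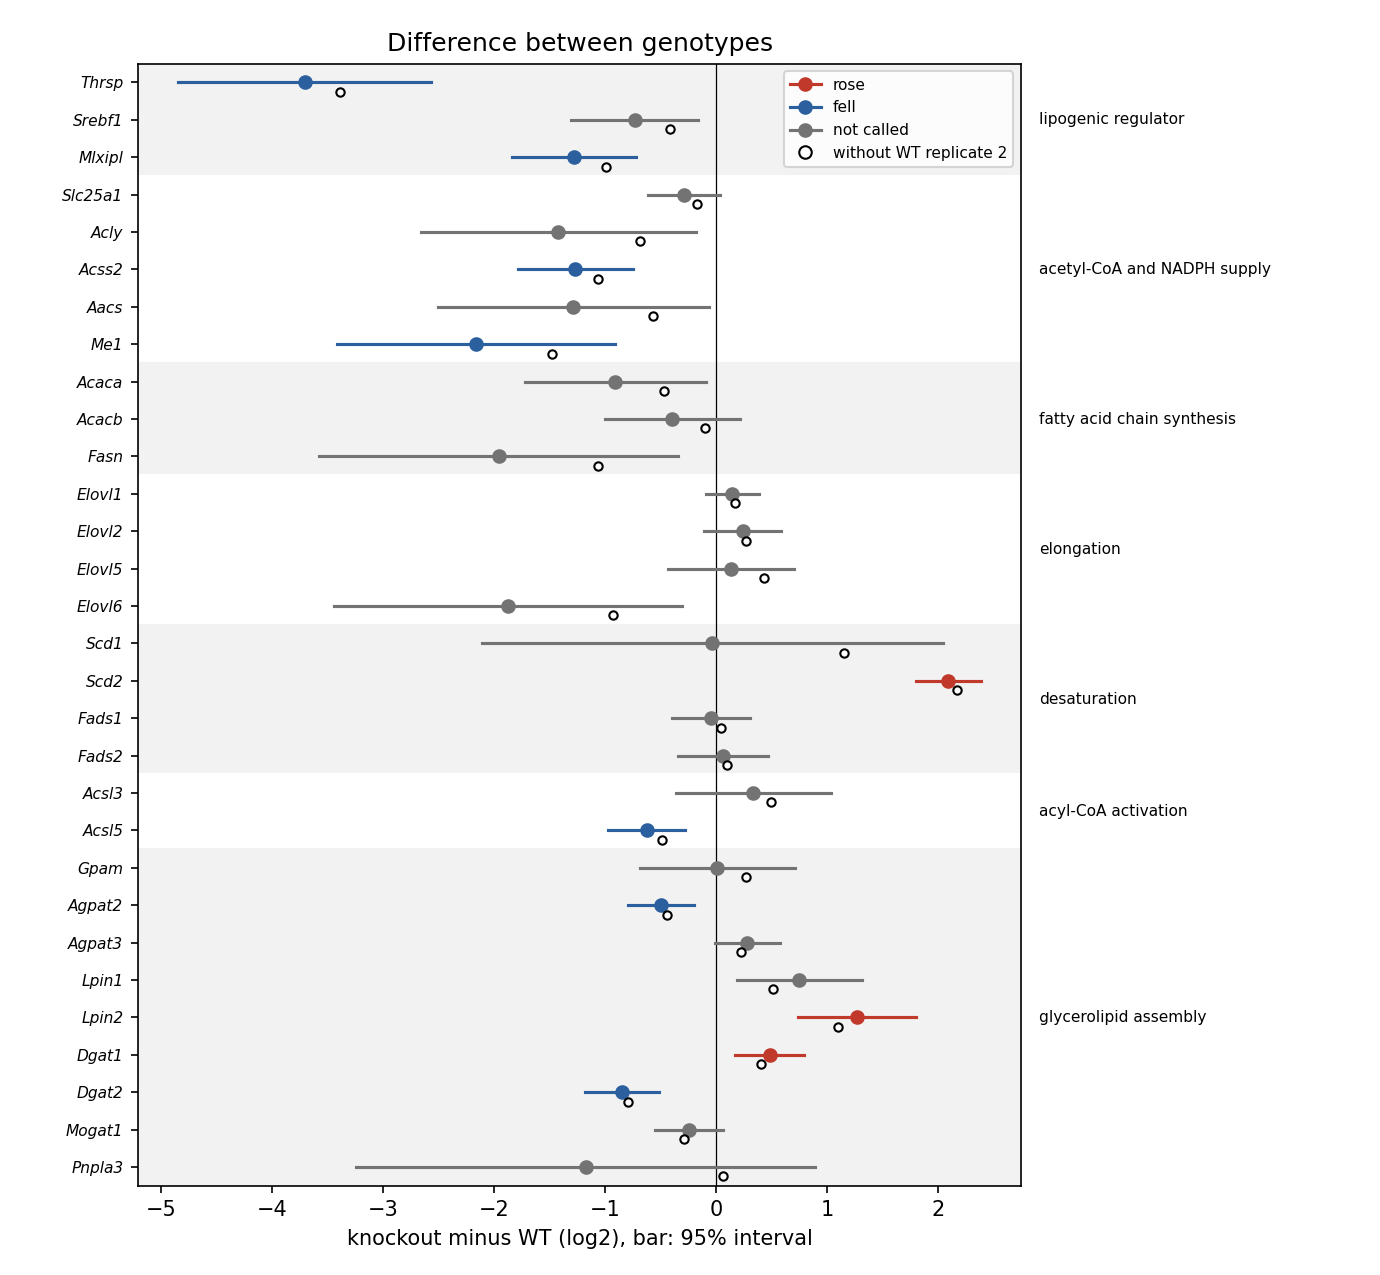
Difference between genotypes, knockout minus WT on the log2 scale, for the 30 tested genes, with limma's 95% interval (red, rose; blue, fell; grey, not called), and the difference without WT replicate 2 as an open circle. The intervals of Scd1 and Pnpla3 span zero and are among the widest, and the open circles of Acly, Fasn, Elovl6, Scd1 and Pnpla3 lie far from the filled ones.

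The WT livers varied more in these genes than the knockout livers did. The median range over 3 livers was 0.84 log2 in WT and 0.32 in knockout for these genes, and 0.30 and 0.27 for all tested genes. WT replicate 2 was the highest WT liver in 23 of the 30 genes (76.7%), against 29.5% of all genes, and WT replicate 1 the lowest in 20 (66.7%), against 35.3% of all genes. WT replicate 2 stood at least 1 log2 above both other WT livers in 8 of the 30 (26.7%): Pnpla3, Scd1, Elovl6, Acly, Fasn, Aacs, Me1 and Acaca. This was so in 68 of all 13370 genes (0.509%), and the 8 make up 11.8% of those 68 and 4 of its first 10 by size. No such liver was found among the other 5 arrays: none of these genes stood 1 log2 above both others of its genotype there. Below both others by 1 log2 were 3 genes in WT replicate 1 and 1, Thrsp, in knockout replicate 1. The same 68 genes include interferon-induced and antigen-presentation genes: Gbp2 read 7.48 in WT replicate 2 against 5.12 and 4.48 in WT replicates 1 and 3, and Cxcl9 read 7.70 against 5.44 and 5.29. Both genes were higher again in every knockout liver, at 7.65, 8.06 and 9.67 for Gbp2 and 7.92, 8.51 and 9.10 for Cxcl9, and both rose. Not all such genes did so. WT replicate 2 was above every knockout liver for Igtp (10.86 against 9.32, 9.55 and 10.41) and Irgm2 (9.01 against 7.47, 7.87 and 8.51), and neither was called. The summed linear level of 8 Kupffer cell markers was 3744 in WT replicate 2 against 2761 and 2220, and 3627 to 3924 in the knockout livers. Their mean log2 level gave another order, at 8.45 in WT replicate 2 against 8.02 and 7.76, and 7.83 on average in knockout. Cd5l and Marco were higher in every knockout liver than in WT replicate 2. Clec4f, Timd4, Vsig4, C1qa, C1qb and C1qc were lower in every knockout liver than in WT replicate 2. The part of these genes in the lipid values was not tested.

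**Figure D3:**
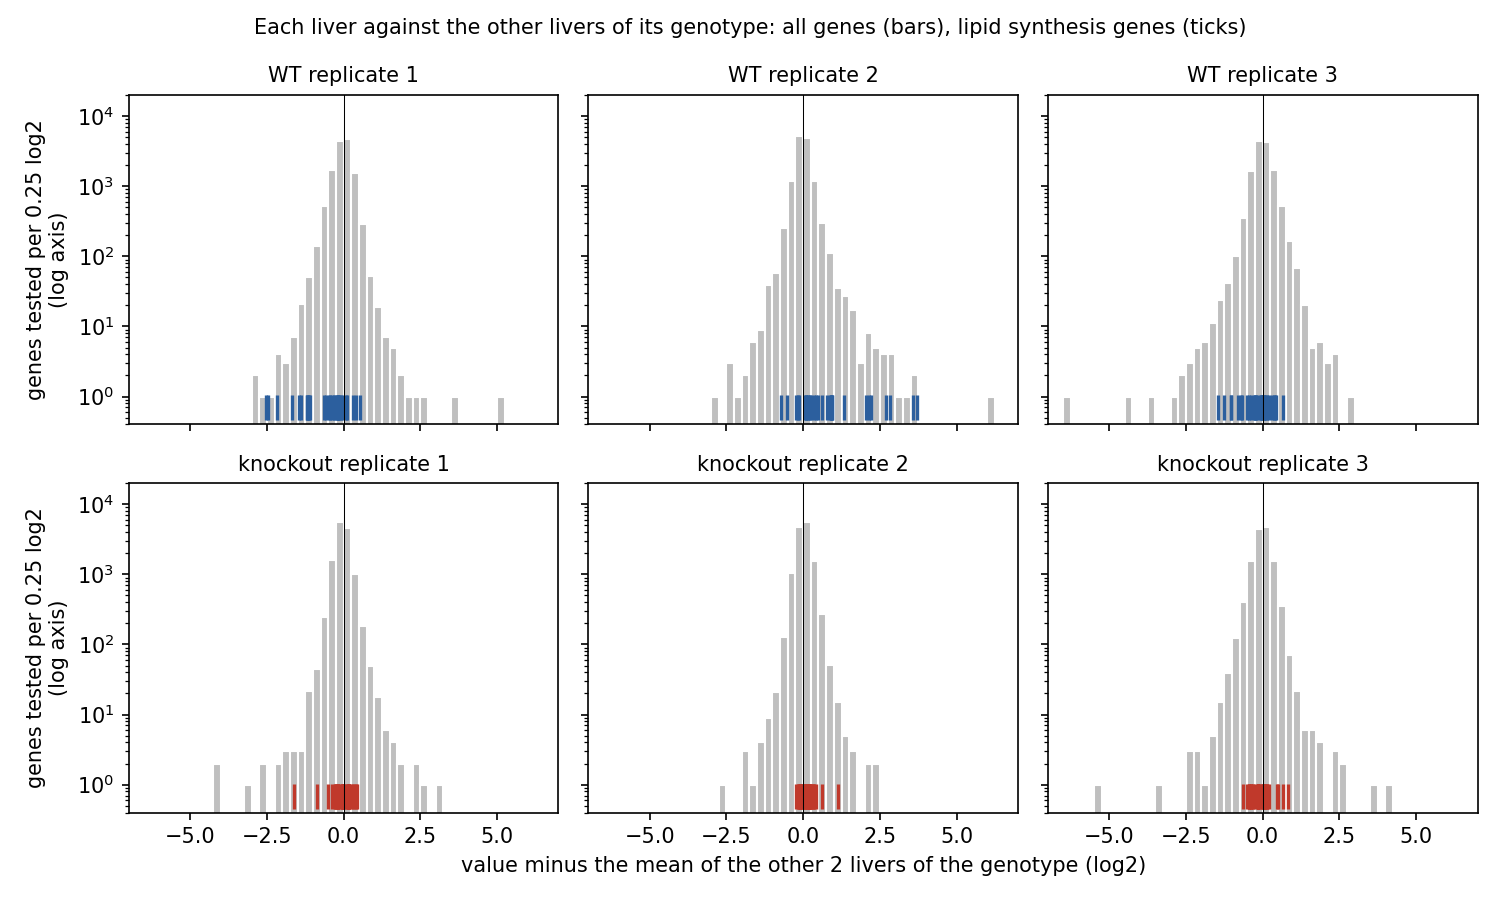
Deviation of each liver from the mean of the other 2 livers of its genotype, 1 panel per liver, in log2 (grey bars, all 13370 tested genes per 0.25 log2 on a log axis; ticks, the 30 lipid synthesis genes). The ticks of WT replicate 2 reach 3.71 to the right, those of WT replicate 1 reach -2.52 to the left, and those of the 3 knockout livers stay within -1.61 and 1.13.

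The probe sets of 1 gene mostly moved together. Of the 60 tested probe sets 5 rose and 13 fell, where 10.1% of all 27022 tested probe sets rose and 7.82% fell. The 13 include the dim probe set of Acaca, whose knockout mean lay below the filter level. Among the 20 genes with more than 1 tested probe set, the differences had the same sign in 17, the exceptions being Elovl1, Gpam and Agpat3. The 17 include Elovl6, whose dimmest probe set was above the filter level in WT replicate 2 alone. No gene had probe sets called in both directions. The genes Thrsp, Scd2 and Dgat2 had all of their tested probe sets called.

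**Figure D4:**
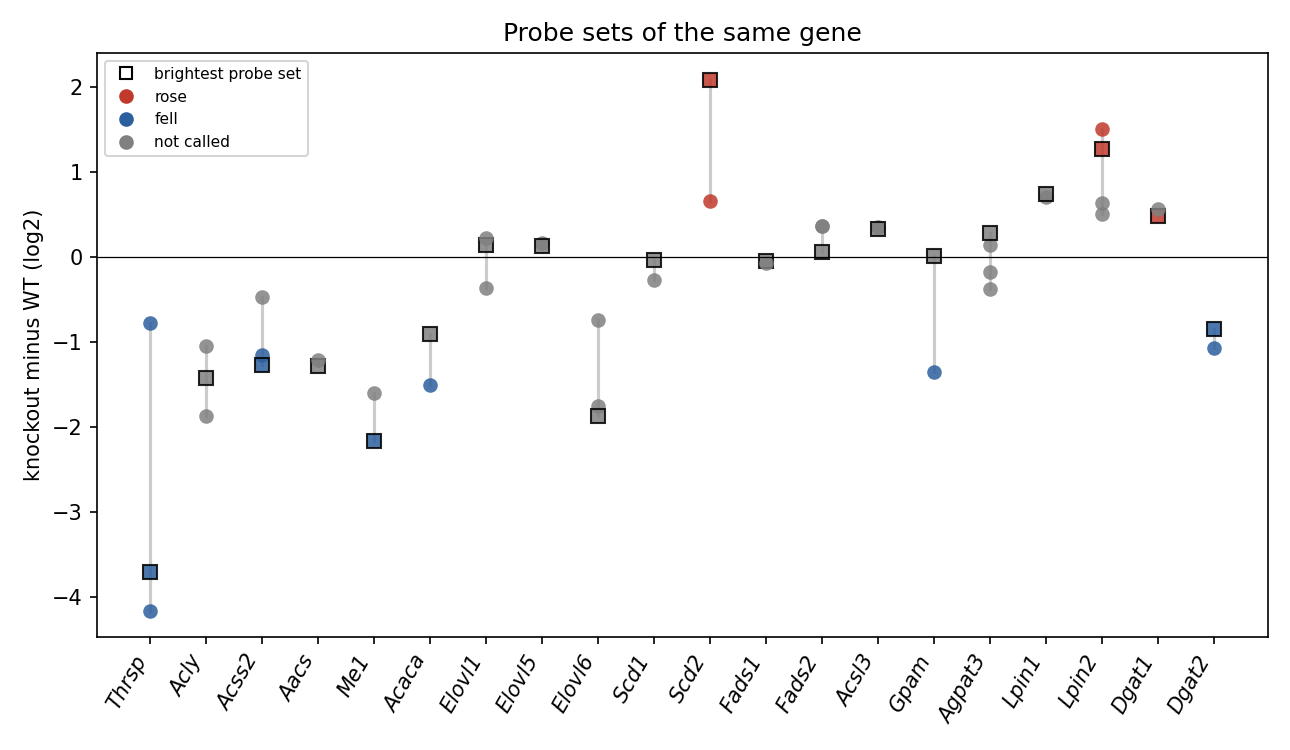
Knockout minus WT difference (log2) of every tested probe set of the 20 genes that have more than 1, joined per gene (squares, the brightest probe set; red, rose; blue, fell; grey, not called). Thrsp, Acss2, Me1, Elovl6 and Dgat2 lie below zero throughout, Scd2 and Lpin2 lie above, and those of Elovl1, Gpam and Agpat3 span zero.

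Other genes of the same pathways were taken from 8 lists, 71 genes in all, of which 60 were tested. The lists were chosen with earlier results of these data known, so their shares are not independent of those results. None rose, against 10.5% of all genes, and 14 fell (23.3%), against 8.09% of all genes, with 46 not called. The count that fell was 7 when knockout replicate 1 was left out, 9 for knockout replicate 2 and 8 for WT replicate 2. The median difference was -0.16. Of the partners and targets of ChREBP, 3 of 5 were called. Pklr, the liver pyruvate kinase, fell by 2.26 (SE 0.42, limma adjusted p = 0.00876), Khk, ketohexokinase, fell by 1.06 (SE 0.21, 0.0109), and Gckr, the regulator of glucokinase, fell by 0.51 (SE 0.11, 0.0177). Pklr read 6.36, 6.91 and 6.43 in knockout and 8.25, 9.91 and 8.30 in WT, with no overlap and WT replicate 2 highest. Without that liver the difference of this probe set was -1.71. The fit without WT replicate 2 read Pklr by another probe set, then the brightest, which fell by 1.34 (limma adjusted p = 0.00293). In the list for NADPH supply, which also holds enzymes that do not themselves make NADPH, such as Mdh1, 2 of 5 were called. Idh1 (cytosolic isocitrate dehydrogenase) fell by 0.91 (SE 0.10, limma adjusted p = 0.00103). Mdh1 (cytosolic malate dehydrogenase) fell by 0.64 (SE 0.10, 0.00352), while Taldo1 (transaldolase) was 0.38 higher and not called (0.0593). Pgd (phosphogluconate dehydrogenase) was 0.80 higher, with every knockout value above WT, and not called (0.0750). The median difference of the 5 was 0.31. Of the genes acting on acetyl-CoA carboxylase and AMPK, 3 of 8 were called. Mid1ip1, a partner of Thrsp that promotes polymerisation of the carboxylase, fell by 1.72 (SE 0.48, limma adjusted p = 0.0437), Prkaa2, an AMPK catalytic subunit, fell by 0.74 (SE 0.20, 0.0385), and Stk11, an AMPK kinase, fell by 0.53 (SE 0.12, 0.0230). Without WT replicate 2, Mid1ip1 fell by 1.11 (limma adjusted p = 0.0343).

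The other 5 lists held 6 of the 14 genes that fell. Of the 11 genes of SREBP and LXR control, only Scap, the escort protein of SREBP, fell, by 0.58 (SE 0.15, limma adjusted p = 0.0310). Insig1 at -0.76 (0.0657) and Mbtps2 at 0.46 (0.0646) were not called. Of 5 genes of thyroid hormone action, which drives Thrsp transcription, Thrb, the liver's main receptor, fell by 0.59 (SE 0.13, limma adjusted p = 0.0190). Its values were dim, at 3.81, 3.81 and 4.02 in knockout and 4.47, 4.68 and 4.27 in WT (filter level 3.58). Thra and Klf9 had differences of -0.16 and 0.40 and were not called. Of 9 other acyl chain enzymes, Tecr, the enoyl-CoA reductase of elongation, fell by 0.61 (SE 0.13, limma adjusted p = 0.0158). Of 6 other acyl-CoA activation genes, Slc27a5 fell by 0.69 (SE 0.15, limma adjusted p = 0.0171) and Acsl6 fell by 0.46 (0.0151). Acsl6 was dim as well, at 4.01, 4.11 and 3.96 in knockout and 4.49, 4.51 and 4.46 in WT. Of 11 other glycerolipid enzymes, Gpd1, which makes glycerol 3-phosphate, fell by 0.74 (SE 0.15, limma adjusted p = 0.0140). The next genes by adjusted p in these 3 lists, Scd3 (-0.47), Hacd3 (0.33), Acsl4 (0.90), Gpat4 (-0.32) and Cds2 (0.19), were not called. Some of the genes not called were called with 1 array left out: Insig1 (-1.02, limma adjusted p = 0.0206) and Klf9 (0.71, 0.0398) without WT replicate 1, Acsl4 (1.14, 0.0252) and Hacd3 (0.45, 0.0435) without WT replicate 3, and Scd3 (-0.62, 0.0492) without knockout replicate 1. The calls of Pklr, Khk, Idh1 and Mdh1 held when any 1 array was left out, although with the mean of its probe sets Mdh1 was at -0.34 and not called (limma adjusted p = 0.0612). The other 10 calls were each lost in at least 1 such fit. Gpd1 and Slc27a5 lost theirs without knockout replicate 1 (limma adjusted p = 0.0518 and 0.0528), Tecr without WT replicate 2 (0.0501), Acsl6 without knockout replicate 1 (0.0568) or WT replicate 2 (0.0501), and Gckr, Thrb, Stk11, Scap, Prkaa2 and Mid1ip1 without 2 or more of the arrays in turn, with limma adjusted p up to 0.0647, 0.0749, 0.0838, 0.0919, 0.104 and 0.136.

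The livers also differed in markers of other cell types, and their part in the results above was not tested. All 10 neutrophil markers rose, with a summed linear level of 13618 to 15299 in knockout and 541 to 684 in WT. B and plasma cell markers rose in 4 of 4 tested (311 to 411 against 96.0 to 106), and proliferation markers in 3 of 5 (357 to 551 against 160 to 230). Of 5 tested T and NK cell markers Gzma, Il7r and Nkg7 rose (232 to 269 against 112 to 145), while Cd3e read 4.88 to 5.05 in knockout and 5.06 to 5.35 in WT and was not called, Cd3d overlapped between groups and Cd3g was too dim to test. Of 8 Kupffer cell markers, Cd5l and Marco rose and Clec4f, Timd4 and Vsig4 fell. Of 7 stellate cell markers 1 rose and 2 fell, with a sum of 2512 to 2937 in knockout and 3218 to 3581 in WT. Of 15 hepatocyte markers, 4 fell and none rose (118851 to 123224 against 126724 to 132216). Fat cells also express many of the lipid synthesis genes. Of the 8 adipocyte markers 5 had a probe set assigned to their symbol alone, and 2 were tested. Retn overlapped between groups and was not called. Fabp4, also made by macrophages and endothelial cells, rose (10.41, 10.08 and 9.78 in knockout against 7.17, 7.18 and 8.24 in WT). It carries the summed level of 930 to 1405 against 194 to 348, while the defining adipocyte genes Adipoq, Lep and Cidec were below the filter level in both groups, with Adipoq at 2.53 to 2.77 in knockout and 2.78 to 2.93 in WT.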

How the data were processed

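Values were deposited by the authors as log2 signals, 1 per probe set and array, for 45101 probe sets on 6 arrays. MAS5 is named per the submitters' processing notes, with no version or role. How background was corrected and probes were scaled and summarized is not stated in the labels or headers used here. That the base is 2 was read from the range of the values. A platform annotation gave 34958 probe sets exactly 1 symbol, 932 several and 9211 none, and 34754 of the first were matched to RefSeq genes.

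The 64 control probe sets and probe sets with a mean under the 40th percentile of the others (3.58 log2) were left out. Each gene was read by its brightest remaining probe set. The genotype comparison used limma 3.58.1 under R 4.3.3 (lmFit, eBayes with intensity trend, two-sided, no covariates or further normalization), and "rose" and "fell" stand for adjusted p-values under 0.05, by the Benjamini-Hochberg method across every gene tested, or every probe set where stated. Each array is a separate mouse. Single array values were compared by exact two-sided permutation. The fit was tested on simulated data.

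The members and lists were chosen with earlier results of these data known. All 31 genes are named, with up to 3 genes of each pathway list with the smallest adjusted p. Gbp2, Cxcl9, Igtp, Irgm2, Pgd and the single marker genes were picked after seeing their values. The 15 alternatives were quantile normalization, centring on the array median, poly-A controls or hepatocyte markers, dropping the filter or raising it to the 60th percentile, no intensity trend, array weights, averaging all probe sets of a gene, and leaving out each array. Those for the other pathway genes were added after the data were seen. Figures were drawn with matplotlib 3.10.9.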

Additional observations from a re-analysis of the deposited data

Results flagged for a closer look

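Signals in the array's own control probe sets, which the comparisons do not use, were above their level in the WT arrays. The poly-A control probe sets were 0.749 log2 higher in the knockout arrays. The 3′ minus 5′ signal was higher in the knockout arrays by 0.447 log2 for Actb, 0.465 log2 for Gapdh and 1.01 log2 for Pcx. Each had an exact permutation p = 0.1, the smallest that 3 against 3 allows, and the part of these differences in the gene results was not tested.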

How the results depend on the processing

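Of the alternatives tried for each of the 30 tested genes, 376 values kept direction and side of the threshold, 25 passed it, 20 lost it and 28 changed sign. Centring on poly-A controls shifted all genes down and its p-values treat a shift shared by every gene of an array as independent. With it 10497 genes were called, 24 of the lipid synthesis genes and 45 of their probe sets fell, 3 probe sets rose, and 48 other pathway genes fell. Signs turned there for Elovl1 (-0.60), Elovl2 (-0.51), Elovl5 (-0.61), Fads2 (-0.69), Acsl3 (-0.42), Gpam (-0.74), Agpat3 (-0.47), Lpin1 (-0.00035), Dgat1 (-0.27), Mbtps2 (-0.29), Taldo1 (-0.37), Hacd3 (-0.42), Cds2 (-0.56) and Klf9 (-0.35). Centring on hepatocyte markers gave 5 genes and 9 probe sets that rose and 6 other pathway genes that fell, with Scd1 at 0.12 and Fads1 at 0.10. Array weights gave 12 genes and 24 probe sets that fell and 8 probe sets that rose, with Elovl5 at -0.012 and Gpam at -0.15. The largest weight went to WT replicate 2 (1.64), against 0.75 and 0.62 for WT replicates 1 and 3. Quantile normalization put Fads1 at 0.0010, and the mean of probe sets put Gpam at -0.67, Agpat3 at -0.031 and Cds2 at -0.11. The median difference of the lipid synthesis genes was -1.09 with poly-A centring (all genes -0.80), -0.19 with hepatocyte centring (all genes 0.10) and -0.55 with array weights. The cause of these changes was not tested. Leaving out 1 array gave 1322 to 2388 genes called, 2 to 3 lipid synthesis genes that rose and 4 to 9 that fell, 3 to 6 and 6 to 18 of their probe sets, and 7 to 12 other pathway genes that fell. Differences then ranged from -0.018 to 0.43 for Elovl5, -0.87 to 1.15 for Scd1, -0.15 to 0.083 for Fads1, -0.096 to 0.19 for Fads2, -0.041 to 0.55 for Acsl3, -0.39 to 0.27 for Gpam and -1.99 to 0.063 for Pnpla3. No paired analysis was possible because the replicate numbers only follow the order of the samples. Dim probe sets near the filter level limit what Elovl3, Mogat1, Thrb, Acsl6 and Scd3 can show. The same holds for Pnpla3 outside WT replicate 2 and for the dimmer probe set of Acaca.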
